A study of Mus musculus with 6 samples.

Results

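The natriuretic peptide system was described here by 9 genes of the deposited table of 57010 genes. They encode the peptides (Nppa, Nppb and Nppc), their receptors (Npr1, Npr2 and Npr3), the proteases that cut the pro-peptides into active hormones (Corin and Furin) and a peptidase that degrades them (Mme). The members were chosen by name and not by a cutoff on measured values, but with earlier results of these data known. RNA-seq was performed on 6 libraries of primary neonatal mouse cardiomyocytes (NMCMs) that were all kept under hypoxia (HO). In 3 libraries the cells were given vehicle (HO + Vehicle, V1 to V3), and in the other 3 they were given β-sitosterol, a plant sterol (HO + β-SITO, T4 to T6). The study isolated NMCMs from newborn C57BL/6 mice as the cells that did not attach in a first plating, a step that leaves some other heart cells behind. The dose of β-SITO and the duration of hypoxia are not given for these libraries, and no library of normoxic cells was used here. The comparison asks how the transcripts of this hormone system differed between β-SITO-treated and vehicle-treated hypoxic cells.

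Atrial natriuretic peptide (ANP, from Nppa) and B-type natriuretic peptide (BNP, from Nppb) are made by heart muscle cells as pro-peptides, and corin and furin cut them. Both hormones bind NPR-A (from Npr1), a receptor with its own guanylyl cyclase that makes cGMP, while C-type natriuretic peptide (CNP, from Nppc) binds the related NPR-B (from Npr2). NPR-C (from Npr3) has no cyclase and takes up all of the peptides, and neprilysin (from Mme) degrades them. In the heart, Nppa is abundant in the atria and in the embryonic ventricle, and both Nppa and Nppb are widely read as markers of wall stress and hypertrophy.

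Nppa and Nppb lie side by side and in the same direction on chromosome 4. In the coordinates of the deposited table (build GRCm39, per the submitters' processing notes) Nppb runs from 148070245 to 148071662 and Nppa from 148085179 to 148086536, both on the plus strand, with 13516 bases between them. The sequence before the start of each is printed because these genes moved together in the data. It was taken from RefSeq on build GRCm38.p6, which is not the build of the table. Capitals mark short motifs that were searched on both strands. They are TCACACC for T-box factors, AAGTG for the factor NKX2-5, and GGAATG, the M-CAT element that TEAD factors bind. The core letters that GATA factors bind were searched as GATAA. The TATA box was searched as TATAAA. The Nppa sequence is chr4:148000472-148000721, plus strand, and holds the 250 bases before the RefSeq start.
Nppa promoter: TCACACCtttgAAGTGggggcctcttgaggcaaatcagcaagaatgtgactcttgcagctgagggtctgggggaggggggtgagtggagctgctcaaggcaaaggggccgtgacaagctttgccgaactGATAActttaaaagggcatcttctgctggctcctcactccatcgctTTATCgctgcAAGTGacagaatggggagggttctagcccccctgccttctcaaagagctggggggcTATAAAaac
The Nppb sequence is the short stretch chr4:147985795-147985823, plus strand, that starts 105 bases before the RefSeq start and holds the M-CAT match and a pair of GATA matches.
Nppb promoter stretch: GGAATGcagctGATAAatcagaGATAAcc
In the Nppa window, GATAA was found at -121 and, on the minus strand, at -75 from the start, AAGTG at -239 and -65, TCACACC at -250 and TATAAA at -9. In the Nppb window, GATAA was found at -94 and -83, GGAATG at -105 and TATAAA at -31. Short motifs are common: among 32851 RefSeq mouse promoter windows of the same length, 22.6% held GATAA, 40.7% AAGTG, 12.6% GGAATG, 12.4% TATAAA and 3.33% TCACACC. A full match to the 10-letter CArG box, the site of serum response factor, was in 1.47% of windows and in neither of these. Near matches to it were not counted, so a site with a differing letter would be missed. The matches describe the letters of the sequence and no binding was measured.

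The study also measured both transcripts by RT-qPCR in other samples, the heart tissue of mice after myocardial infarction. There it reported lower ANP and BNP mRNA with β-SITO than in the infarcted mice without it. That direction is the opposite of the one found below in the hypoxic NMCM libraries, which differ in tissue, model and method. The cause of the difference was not tested. The primers of the study show which part of each transcript was read there. All 4 primers lie in exon 2 of the 3 exons of their transcript. The ANP primers start at positions 478 and 506 of the Nppa transcript and the BNP primers at 411 and 511 of the Nppb transcript (GENCODE vM21).
ANP forward: ggagcctacgaagatccagc
ANP reverse: tccaatcctgtcaatcctaccc
BNP forward: cttcggtctcaaggcagcac
BNP reverse: gcccaaacgactgacggatc
Both ANP primers also lie inside Gm13054, a long non-coding RNA on the opposite strand, which the deposited table lists with at most 12 counts in any library.

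The total per library was 16694734 to 17082129 counts with vehicle and 16962152 to 18460522 counts with β-SITO. Of all genes, 14799 had enough counts for a test, the 9 members among them, and 3380 of these (22.8%) were differentially expressed genes (DEGs), defined by an adjusted p under 0.05 in edgeR's quasi-likelihood test with a change of more than 2-fold. One library stood apart within its group: the chi-square per degree of freedom between T4 and the other HO + β-SITO libraries was 8.58 and 9.10, against 1.95 between T5 and T6 and 4.62 to 7.36 among the vehicle libraries. In T4 the summed CPM (counts scaled by TMM to a common library size) of 9 cardiomyocyte marker genes was 61.3% of the mean of T5 and T6, while that of 7 fibroblast markers was 101%. The label of the cells was checked against the same markers. All 9 cardiomyocyte markers were detected in every library, but per kb of exon their sum was 1739 to 2017 CPM in the vehicle libraries and 1321 to 2249 in the β-SITO libraries, below the sum of the 7 fibroblast markers (3504 to 3636 and 5137 to 5267). The libraries are therefore called NMCM libraries by their label, with transcripts of other heart cells present, and in such bulk RNA fewer cells of a type and less RNA per cell cannot be told apart. Only the names of the HO + β-SITO libraries carry a suffix, and whether they were prepared separately cannot be told apart from β-SITO itself.

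Of the 9 members, 4 rose with β-SITO (Nppa, Nppb, Npr2 and Npr3), 1 fell (Npr1), and 4 did not pass the threshold (Nppc, Corin, Furin and Mme). The 5 DEGs among 9 members stand beside 22.8% of all genes tested, with 12.8% of all genes called higher and 10.1% called lower, and 5 members were also called when T4 was left out. Without the 2-fold requirement 7 members passed, against 66.8% of all genes, and these were 4 higher and 3 lower (all genes, 33.0% and 33.8%). The groups did not overlap for 8 members, against 70.5% of all genes. The median log2 fold change of the members was 0.32, and that of all genes tested was -0.01.

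**Figure D1:**
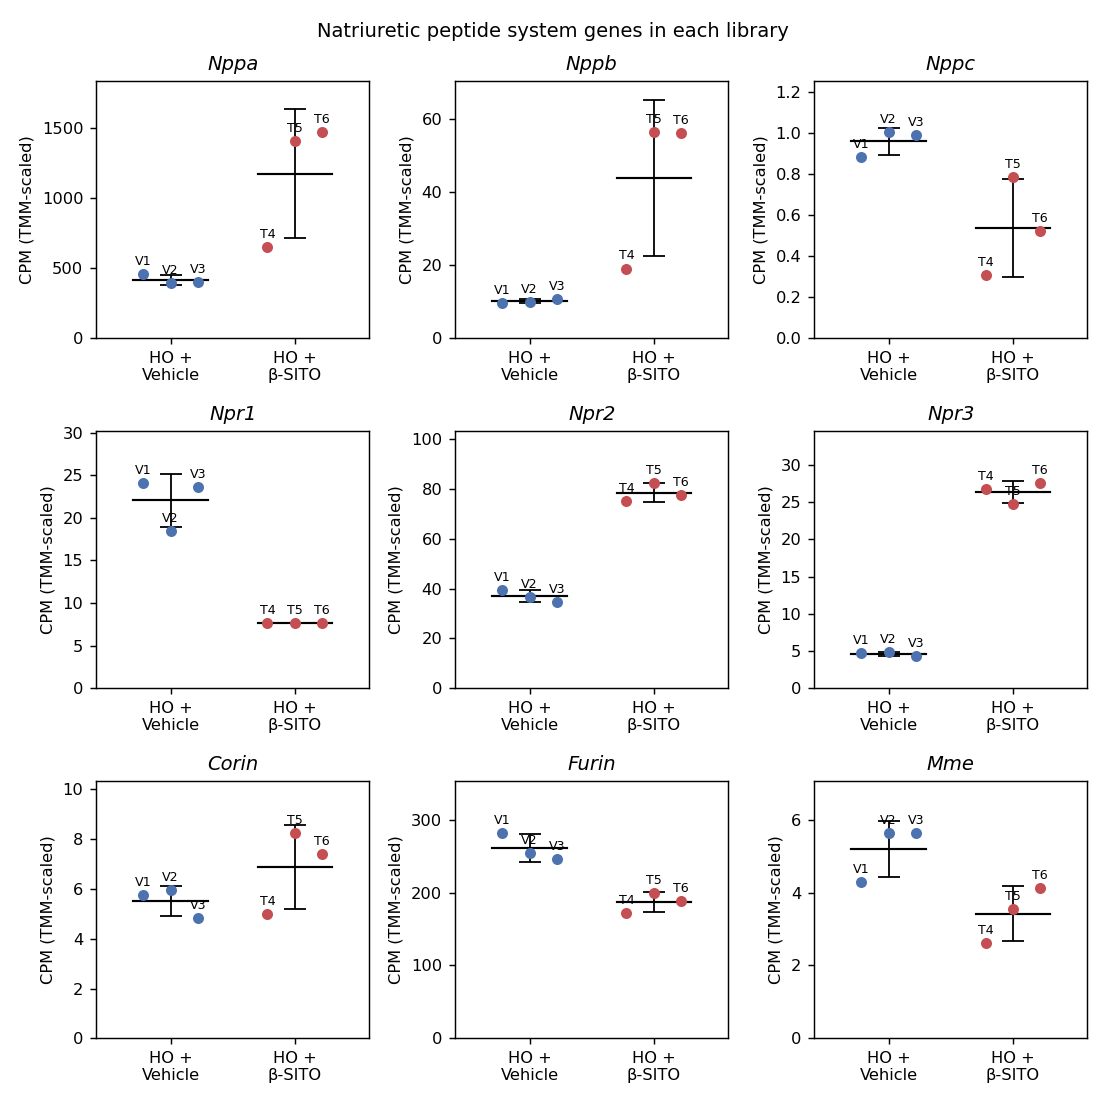
CPM of each member gene in every library (y axis, linear, from 0), with vehicle libraries V1 to V3 in blue and β-SITO libraries T4 to T6 in red, the horizontal line at the group mean and the bars at 1 SD (n = 3). Nppa and Nppb were higher in all 3 β-SITO libraries with T4 far below T5 and T6, Npr3 and Npr2 were higher and Npr1 lower with little spread, and only for Corin did the groups overlap.

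The ligands came first. Nppa was measured at 456, 391 and 402 CPM in V1, V2 and V3, and at 648, 1410 and 1469 CPM in T4, T5 and T6. All 3 β-SITO libraries were above every vehicle library, and T4 was much closer to the vehicle libraries than to T5 and T6. The rise was 2.82-fold (log2 fold change 1.50, SE 0.21, edgeR adjusted p = 1.17e-05). Nppa transcripts made up 0.0374% to 0.0431% of all counts in the vehicle libraries and 0.0683% to 0.154% in the β-SITO libraries.

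Nppb was measured at 9.66, 9.97 and 10.8 CPM in V1 to V3 and at 19.1, 56.3 and 56.1 CPM in T4 to T6. The groups did not overlap, and T4 again lay between the vehicle libraries and the other β-SITO libraries. Nppb rose 4.30-fold (log2 fold change 2.10, SE 0.30, edgeR adjusted p = 1.71e-05). These values rest on 153 to 175 counts in the vehicle libraries and 371 to 1077 in the β-SITO libraries. When T4 was left out, the log2 fold changes were 1.79 for Nppa and 2.47 for Nppb.

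T4 was low for both peptides compared with most of the transcriptome. Among 10992 tested genes with a mean of at least 100 counts, Nppb ranked 2 and Nppa ranked 8 by how far T4 lay below the lower of T5 and T6, by 2.94-fold and 2.18-fold. Only 16 genes lay as far as 2-fold below, and several others of them belong to the muscle cell: Myh7 (a slow myosin heavy chain), Xirp2 and Csrp3 (proteins of the sarcomere), Ckmt2 (mitochondrial creatine kinase) and Nkx2-5 (a cardiac transcription factor). Not all of the 16 are muscle genes, since Il1a, Epn3, Tnfrsf9, Ptgds and Coch are also among them. Il1a and Coch were close to the detection limit in the β-SITO libraries, at 0.10 to 0.31 and 0.10 to 0.22 CPM. The genes named here were picked for mention after the ranking was seen.

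Nppc, the CNP gene, was close to the detection limit, with 14, 16 and 16 counts in V1 to V3 and 6, 14 and 10 counts in T4 to T6. In CPM this was 0.88 to 1.0 in the vehicle libraries and 0.31 to 0.79 in the β-SITO libraries, so every β-SITO library was below every vehicle library. Nppc passed the filter on low counts through the vehicle libraries. The difference did not pass (log2 fold change -0.84, 95% interval -1.62 to -0.06, edgeR adjusted p = 0.0530). Leaving out T5 turned it into a call, with a log2 fold change of -1.17 and an adjusted p of 0.0244.

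The receptors moved in both directions with small spread between libraries. Npr1, which encodes the cyclase receptor of ANP and BNP, was measured at 24.1, 18.5 and 23.6 CPM in V1 to V3 and at 7.61, 7.70 and 7.65 CPM in T4 to T6. The β-SITO libraries were almost identical and all lay far below the vehicle libraries. Npr1 fell 2.88-fold (log2 fold change -1.53, SE 0.11, edgeR adjusted p = 9.76e-09).

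Npr3, which encodes the clearance receptor, was measured at 4.80, 4.83 and 4.34 CPM in V1 to V3 and at 26.7, 24.8 and 27.6 CPM in T4 to T6. Each β-SITO library was far above every vehicle library, and T4 lay between T5 and T6. The rise of 5.66-fold was the largest fold change among the members (log2 fold change 2.50, SE 0.10, edgeR adjusted p = 6.42e-12).

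Npr2, which encodes the CNP receptor, was measured at 39.7, 36.5 and 34.8 CPM in V1 to V3 and at 75.1, 82.6 and 77.7 CPM in T4 to T6. The groups did not overlap and T4 was near the other β-SITO libraries. Npr2 rose 2.12-fold (log2 fold change 1.08, SE 0.07, edgeR adjusted p = 1.74e-09). This change sits close to the 2-fold threshold, since its 95% interval on the log2 scale ran from 0.94 to 1.23, and a test against a 2-fold change (glmTreat) did not pass (adjusted p = 0.211).

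The proteases changed less. Furin, the convertase that cuts pro-BNP, was measured at 282, 254 and 246 CPM in V1 to V3 and at 172, 200 and 188 CPM in T4 to T6. All β-SITO libraries were below all vehicle libraries, but the log2 fold change of -0.48 (SE 0.07, edgeR adjusted p = 1.95e-05) was smaller than 2-fold. Furin was therefore not counted among the DEGs.

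Corin, the membrane protease that cuts pro-ANP, was measured at 5.75, 5.96 and 4.83 CPM in V1 to V3 and at 4.98, 8.26 and 7.39 CPM in T4 to T6. T4 lay within the vehicle range and T5 and T6 lay above it. The difference did not pass (log2 fold change 0.32, 95% interval -0.07 to 0.70, edgeR adjusted p = 0.131). Without T4 the log2 fold change was 0.51 with an adjusted p of 0.00479, still under 2-fold.

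Mme, the neprilysin gene, was measured at 4.30, 5.64 and 5.64 CPM in V1 to V3 and at 2.62, 3.54 and 4.11 CPM in T4 to T6. The highest β-SITO library was just below the lowest vehicle library. The log2 fold change was -0.60 (SE 0.19, edgeR adjusted p = 0.0109), which is less than 2-fold.

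**Figure D2:**
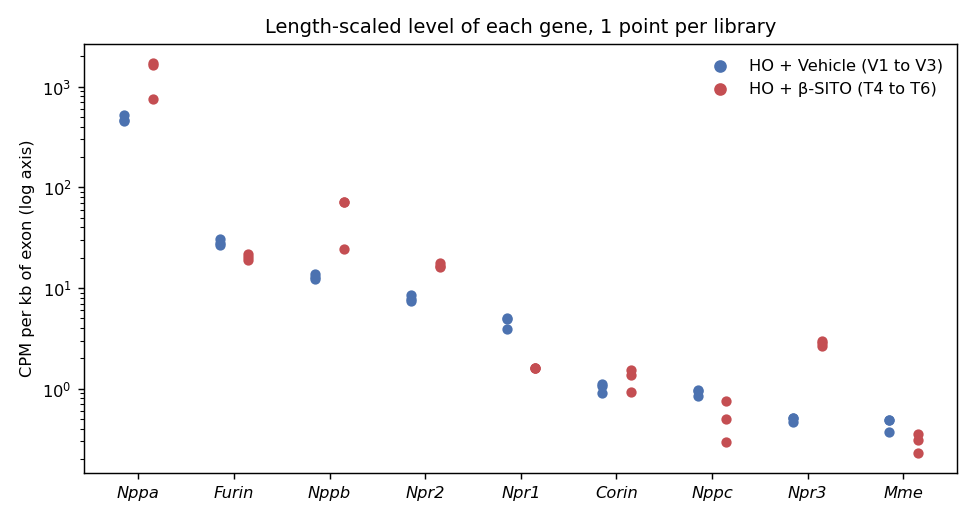
Level of each member as CPM per kb of exon (y axis, log scale), 1 point per library, vehicle in blue and β-SITO in red, ordered by the vehicle mean. Nppa was highest in both groups (means 481 and 1359), Nppb moved past Furin (13.0 to 56.1 against 28.4 to 20.3) and Npr3 moved past Npr1 (0.496 to 2.81 against 4.62 to 1.60).

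Levels of different genes were compared per kb of exon, since longer transcripts give more reads. In the vehicle libraries Nppa was highest with 481 ± 39.9 CPM per kb (SD, n = 3), followed by Furin (28.4 ± 2.07), Nppb (13.0 ± 0.786), Npr2 (7.93 ± 0.531) and Npr1 (4.62 ± 0.651). Corin (1.02 ± 0.110) and Nppc (0.921 ± 0.0629) overlapped in their ranges, as did Npr3 (0.496 ± 0.0292) and Mme (0.450 ± 0.0673), so the order within each of these pairs was not resolved. In the β-SITO libraries Nppa remained highest with 1359 ± 529 CPM per kb (SD, n = 3), and Nppb stood next with 56.1 ± 27.4, above Furin with 20.3 ± 1.51 and Npr2 with 16.8 ± 0.816. Npr3 (2.81 ± 0.155) then stood above Npr1 (1.60 ± 0.00994), and Corin (1.27 ± 0.314), Nppc (0.517 ± 0.230) and Mme (0.297 ± 0.0652) followed, with only Nppc and Mme overlapping. Npr2 was the most abundant receptor transcript in both groups on this scale. The least abundant receptor transcript was Npr3 in the vehicle libraries and Npr1 in the β-SITO libraries.

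Ratios of counts within a library do not depend on the scaling between libraries. The Npr3 to Npr1 ratio was 0.199, 0.261 and 0.184 in V1 to V3 and 3.51, 3.22 and 3.61 in T4 to T6. Clearance receptor reads, not corrected for transcript length, were fewer than Npr1 reads in every vehicle library and more numerous in every β-SITO library. The difference was 4.02 on the log2 scale, or 16.2-fold (exact two-sided permutation test, p = 0.1, the smallest that 3 libraries against 3 can give).

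The Npr2 to Npr1 ratio was 1.64, 1.98 and 1.47 in V1 to V3 and 9.88, 10.7 and 10.2 in T4 to T6. It was 6.08-fold higher with β-SITO, with no overlap (exact permutation p = 0.1). Nppb also changed relative to Nppa: its reads came to 0.0212, 0.0255 and 0.0270 of the Nppa reads in V1 to V3 and to 0.0294, 0.0399 and 0.0382 in T4 to T6. This difference was 0.54 on the log2 scale, with group means of -5.36 ± 0.18 and -4.81 ± 0.24 (SD, n = 3, exact permutation p = 0.1), and the highest vehicle library was close to T4.

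**Figure D3:**
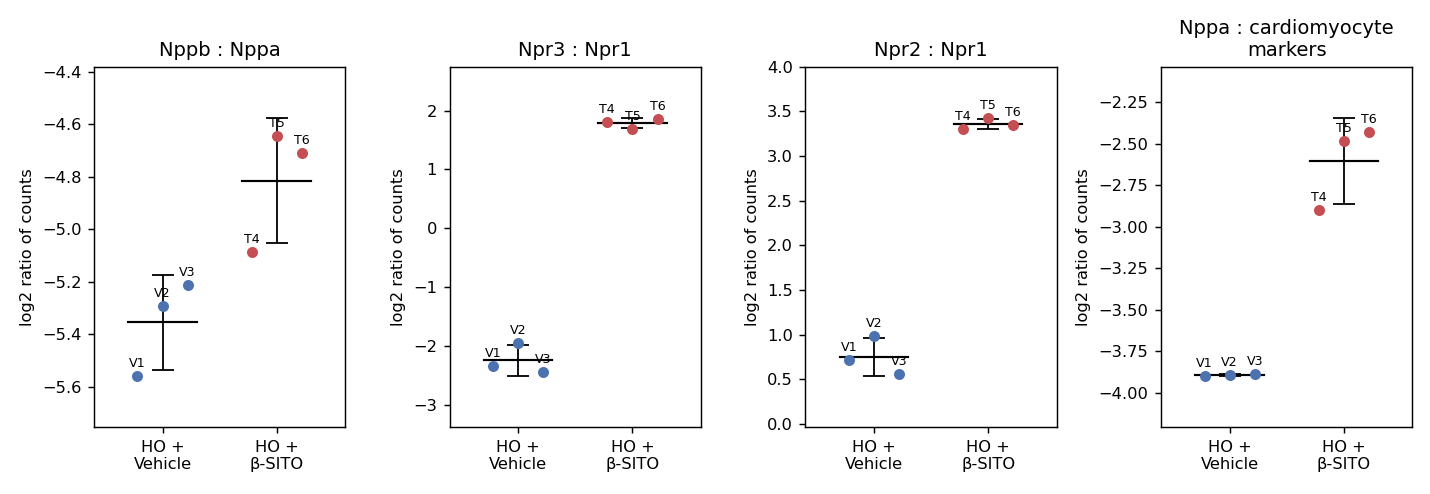
Log2 ratios of raw counts within each library (y axes, each with its own range), vehicle in blue and β-SITO in red, with the group mean and 1 SD (n = 3). The Npr3 to Npr1 and Npr2 to Npr1 ratios differed by 4.02 and 2.60 with narrow spread, and T4 was the lowest β-SITO library in the ratios of Nppb to Nppa and of Nppa to cardiomyocyte markers.

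The peptide genes were also read against other muscle transcripts of the same library. Reads of Nppa came to 0.0670, 0.0673 and 0.0675 of the summed reads of the 9 cardiomyocyte markers in V1 to V3, and to 0.134, 0.179 and 0.186 in T4 to T6. The vehicle libraries were nearly equal on this measure, and all 3 β-SITO libraries stood clear of them, with T4 lowest. The difference was 2.44-fold for Nppa and 3.55-fold for Nppb (exact permutation p = 0.1 for each). None of the 9 cardiomyocyte markers was a DEG, although Ttn became one without T4 (log2 fold change 1.01), their median log2 fold change was 0.00, and their summed CPM was 5809 to 6797 in the vehicle libraries and 4842 to 7900 in the β-SITO libraries.

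Atrial transcripts moved with the peptide genes. Their count stands beside 12.8% of all genes called higher and 10.1% called lower. Of 5 atrial markers 4 rose: Sln (sarcolipin, an inhibitor of the calcium pump, log2 fold change 3.08), Myl7 (an atrial myosin light chain, 2.39), Bmp10 (a growth factor of the trabeculae and atria, 2.13) and Myl4 (another atrial myosin light chain, 1.86). Nr2f2, a factor of atrial identity, had a log2 fold change of 0.84, which did not reach 2-fold. The summed CPM of the list was 76.3 to 81.6 in the vehicle libraries and 213 to 318 in the β-SITO libraries, with T4 lowest among the latter. Against the summed reads of this list, Nppa was lower with β-SITO by 0.41 on the log2 scale and Nppb higher by 0.13 (exact permutation p = 0.1 and 0.8). Without T4 these differences were -0.22 and 0.46. This choice of denominator was made after the data were seen. Among 4 ventricular markers, only Hey2 (a repressor of atrial genes) rose, while Myl2 (the ventricular myosin light chain) had a log2 fold change of 0.27. The part of a shift between atrial and ventricular cells in the Nppa and Nppb values was not tested.

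**Figure D4:**
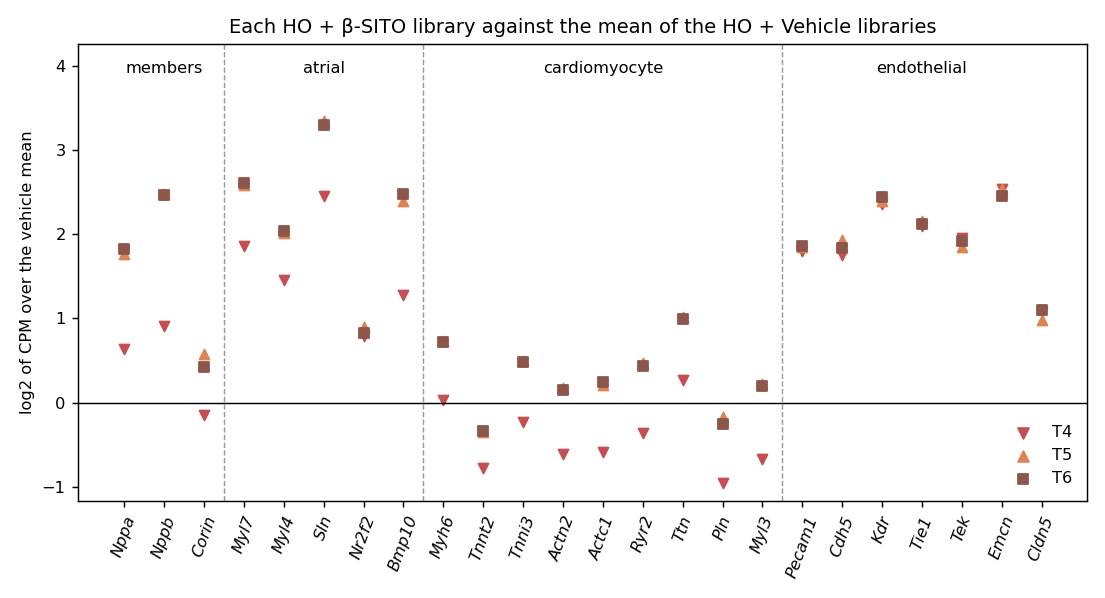
Log2 of CPM in each β-SITO library over the mean of the 3 vehicle libraries (y axis) for 3 members and for the atrial, cardiomyocyte and endothelial marker genes (x axis). T4 (down triangles) lies below T5 and T6 for Nppa, Nppb, Corin, all 5 atrial markers and all 9 cardiomyocyte markers, whereas the 3 libraries nearly coincide for the endothelial markers.

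Markers of other cells moved as well, and receptors are made by several of these cells. The counts of markers that follow stand beside 12.8% of all genes called higher and 10.1% called lower. All 7 endothelial markers rose, with a summed CPM of 199 to 227 in the vehicle libraries and 786 to 824 in the β-SITO libraries. Relative to the summed endothelial reads, Npr1 was 11.1-fold lower and Npr3 was 1.46-fold higher with β-SITO (exact permutation p = 0.1 for each, ratios added after the data were seen). Of 7 mural cell markers 6 rose, with a sum of 606 to 695 CPM in the vehicle libraries and 1068 to 1217 CPM in the β-SITO libraries. Of 4 endocardial markers 3 rose, with sums of 41.4 to 47.3 CPM and 133 to 135 CPM, and the remaining gene, Cytl1, was at 0 counts in every vehicle library and at 2 counts or fewer in the others. Without V2, Nfatc1 and Smoc1 of this list were under 2-fold (log2 fold changes of 0.99 for each). None of 7 fibroblast markers was a DEG with TMM scaling of all 6 libraries, though their sum was 28620 to 30065 CPM with vehicle and 43469 to 44449 CPM with β-SITO. Col3a1 and Lum were called with library size only. Lum was also called with upper quartile scaling and, with TMM, without V3 or without T6 (log2 fold changes of 1.05 and 1.02). Of 8 macrophage markers 5 rose and 1 fell, with a sum of 1113 to 1231 CPM with vehicle and 2411 to 2955 CPM with β-SITO. Of 5 epicardial markers 2 rose (Wt1 not without V1) and 1, Aldh1a2 (a retinoic acid synthesis enzyme), fell by 3.31 on the log2 scale, so the list's sum was 879 to 912 CPM with vehicle and 162 to 192 CPM with β-SITO although its median log2 fold change was 0.60. The part of these cell types in the receptor values was not tested.

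Downstream of the cyclase receptors, the cGMP pathway list held 21 genes, of which 18 were tested. Among these 10 rose and 2 fell, and 6 were not called, beside 12.8% of all genes called higher and 10.1% called lower. Mural and endothelial markers rose as well, and the part of these cell types in the values of this list was not tested. The median log2 fold change of the list was 1.32, against -0.01 over all genes. The largest change by the naming rule was in a subunit of the soluble, nitric oxide-sensitive guanylyl cyclase, a source of cGMP separate from the natriuretic peptide receptors. This gene, Gucy1a1, was measured at 57.5 to 58.2 CPM in the vehicle libraries and 596 to 648 CPM in the β-SITO libraries, a rise of 10.6-fold (log2 fold change 3.41, SE 0.06, edgeR adjusted p = 6.42e-16). The partner subunit Gucy1b1 was measured at 44.1 to 49.96 CPM with vehicle and 184 to 199 CPM with β-SITO, a 4.05-fold rise (adjusted p = 4.65e-13).

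Several genes for the targets and the breakdown of cGMP also rose. Irag1, a substrate of cGMP-dependent protein kinase that acts on calcium release, went from a mean of 6.31 ± 0.728 to 43.6 ± 0.718 CPM (SD, n = 3), or 6.91-fold. Prkg1, the kinase itself, rose 3.93-fold. Among the phosphodiesterases, Pde3b rose 4.13-fold, Pde3a 2.60-fold and Pde5a 2.40-fold. Pde3a and Pde3b are inhibited by cGMP while they degrade cAMP, and Pde5a degrades cGMP. The genes that fell were Prkg2 (4.48-fold), the second cGMP kinase gene, and Pde10a (2.32-fold). Prkg2 held 18, 10 and 15 counts in V1 to V3 and 4, 4 and 3 in T4 to T6, passed the filter on low counts through the vehicle libraries, and was not tested where 1 CPM was required in 3 libraries. Vasp, a kinase substrate of the cytoskeleton and one of the most abundant genes of the list, had a log2 fold change of -0.18. Prkg1, Pde5a, Prkg2 and Pde10a were chosen for the text with their values known. T4 lay near T5 and T6 for Gucy1a1, Gucy1b1 and Irag1. It was low for others of the list, such as Pln, the phospholamban gene of muscle (65.1 CPM in T4, 112 and 106 in T5 and T6), and Pde1c (5.91, 10.3 and 10.7 CPM), both also chosen with their values known.

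**Figure D5:**
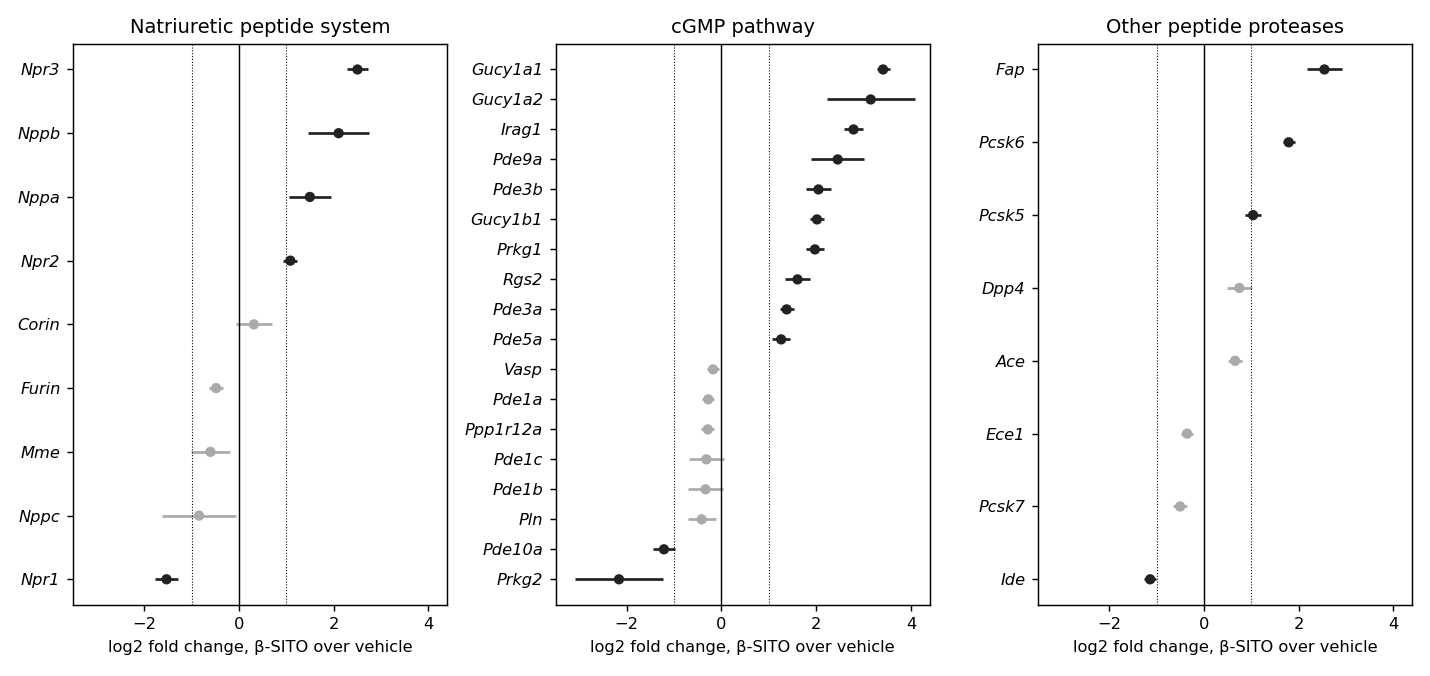
Log2 fold change of β-SITO over vehicle (x axis) with 95% intervals for the 9 members, the 18 tested cGMP pathway genes and the 8 tested genes of other proteases. Black points are DEGs, grey points are not, and the dotted lines mark a 2-fold change. The cGMP genes range from 3.41 for Gucy1a1 to -2.16 for Prkg2, which held only 3 to 4 counts in each β-SITO library.

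The list of other enzymes that act on these peptides or on corin, together with osteocrin (Ostn), a ligand of NPR-C, held 11 genes. Of its 8 tested genes 3 rose and 1 fell, beside 12.8% of all genes called higher and 10.1% called lower. Ostn had too few counts for a test. Pcsk6, the convertase that activates corin, went from 80.8 ± 4.20 to 279 ± 6.44 CPM (SD, n = 3), a 3.45-fold rise (edgeR adjusted p = 6.29e-13). Pcsk5, a related convertase, rose 2.05-fold and Fap, a peptidase of activated fibroblasts, rose 5.82-fold. Ide, the insulin-degrading enzyme that also cleaves ANP, fell from 168 ± 6.43 to 76.3 ± 2.64 CPM, by 2.20-fold. Its call was lost with library size or upper quartile scaling, where its log2 fold change was -0.99 under each. The abundant Ece1 and Ace, endothelin- and angiotensin-converting enzymes, had log2 fold changes of -0.36 and 0.66.

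Factors known to act on the Nppa and Nppb promoters were called at more than 2-fold about as often as all genes, at 4 of 18 tested against 22.8%. Without the 2-fold requirement 14 of the 18 passed, 12 higher and 2 lower. Of all genes, 66.8% passed in that way, 33.0% higher and 33.8% lower. Of this list of 20 factors, 3 rose (Hey2, Mef2c and Nfatc4, with log2 fold changes of 1.98, 1.41 and 1.12) and Tbx3, a repressor, fell by 1.01 on the log2 scale. Tbx3 sat at the 2-fold threshold and lost its call when V1, V3, T4 or T6 was left out (log2 fold changes of -0.97, -0.96, -0.88 and -0.93), with library size or upper quartile scaling (-0.86 and -0.87) and with glmTreat. Gata4, a factor of GATA motifs, had a log2 fold change of 0.16, and Tead1, a factor of M-CAT elements, had -0.10. The T-box factors Tbx20, Tbx5 and Tbx2 had 0.91, 0.63 and 0.43. Nkx2-5, the factor for which AAGTG was searched, had -0.42 and did not pass at any fold (edgeR adjusted p = 0.0871). It was at 5.45 CPM in T4 and at 11.9 and 11.6 CPM in T5 and T6. Tbx5, Tbx2 and Nkx2-5 were chosen for the text with their values known. Of 14 tested genes of a stress and fetal gene list, 4 rose and none fell, beside 12.8% of all genes called higher and 10.1% called lower. Without the 2-fold requirement 5 of the 14 passed, against 66.8% of all genes. However, Bdnf was called lower without T4 (log2 fold change -1.09) and Acta1 without T6 (-1.64). The genes that rose were Ccn2 (connective tissue growth factor), Fhl1 (a sarcomere-associated LIM protein), Myh7 and Edn1 (endothelin), with log2 fold changes of 2.57, 2.44, 1.61 and 1.17. Ankrd1, another stress gene and the most abundant of that list, had -0.28 and the list's median was -0.09. Myh7 was measured at 17.1, 10.9 and 12.3 CPM in V1 to V3 and at 18.4, 54.0 and 50.6 CPM in T4 to T6. As for Nppb, T4 lay between the vehicle libraries and T5 and T6, but for Myh7 it was only just above V1.

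The genes whose log2 CPM followed Nppa most closely over the 6 libraries were Igfbp2, Trp53i11 and Asb2 (Pearson's r of 0.994 for each). For Nppb they were Snx32, Klhl41 and Ezh1 (r of 0.996, 0.996 and 0.994). These are descriptions over 6 libraries that share the group difference and the low value of T4, chosen from 10992 genes. Asb2 and Klhl41 are muscle genes, and their log2 fold changes were 1.03 and 0.90.

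The rise on chromosome 4 did not extend to the next genes of the table. Clcn6, which follows Nppa, had a log2 fold change of -0.61 and 2510039O18Rik, which precedes Nppb, had -0.24. Reads of overlapping genes could touch 6 members, since 10 rows of the table overlap them, 7 of these on the other strand, and the strand setting of the counting is not given in the sources used here. None of the 10 held more than 48 counts in a library. The highest was Gm12473, antisense to Npr2, with 8, 7 and 12 counts in V1 to V3 and 40, 29 and 48 in T4 to T6. If strand was ignored, reads that fit both a member and an overlapping gene could be left out of both counts. Low counts of the overlapping genes therefore cannot show that a member lost no reads. Gm13054 overlaps Nppa from 148085548 onward, so the level of Nppa and the ratios with Nppa carry this limit.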

How the data were processed

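Total RNA of 6 NMCM libraries was sequenced by the study, which names an ABclonal mRNA kit where the sample labels name an Illumina TruSeq kit. The authors deposited raw gene counts, with no normalization. The submitters' processing notes name FastQC, HISAT2, featureCounts and build GRCm39, and their versions and the strand setting are not given in the sources used here. The study used DESeq2. Here, genes with low counts were removed with filterByExpr, the counts were scaled by TMM and compared with edgeR 4.0.16 (R 4.3.3), with Benjamini-Hochberg adjustment over the 14799 genes tested and the study's thresholds (adjusted p under 0.05, more than 2-fold). Ratios were compared with exact permutation tests in scipy 1.17.1. On simulated counts of 14557 genes, 198 of 200 changed genes were recovered with 1 false call. The simulation gave every gene the same dispersion and changed far fewer genes than were called here. It therefore checks the code and does not give the error rate of these calls.

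Exon lengths were taken from GENCODE vM21 by gene ID (9 of 9 members matched), and promoters from RefSeq (GRCm38.p6). Nppc, with 6 to 16 counts, is the member most limited by counting error. The labels do not say that the libraries came from separate cultures, so p-values measure only the spread between these libraries. Alternatives were DESeq2 1.42.0, limma-voom (limma 3.58.1), glmTreat, other scalings and filters, and leaving out each library. Members and lists were chosen with earlier results of these data known. Of each list, the text names the called genes with the 4 largest changes (mean of at least 50 counts, no overlap) and the 3 most abundant genes, with exceptions stated where they occur. Not every gene chosen by this rule among the cell type markers is named.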

Additional observations from a re-analysis of the deposited data

How the results depend on the processing

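No member changed direction under any alternative. The 5 called members numbered 5 under each other scaling, filter, DESeq2, limma-voom and the removal of mitochondrially encoded genes, 4 with glmTreat (Npr2 lost) and 7 with no fold-change cutoff (Furin and Mme gained). Leaving out 1 library gave 5 to 6 called members, 3467 to 3610 DEGs, 12 to 12 cGMP genes, 4 to 4 proteases, 3 to 4 transcription factors and 4 to 5 stress genes. Log2 fold changes then ranged from 1.31 to 1.79 for Nppa, 1.89 to 2.47 for Nppb, -1.64 to -1.44 for Npr1, 1.07 to 1.16 for Npr2 and 2.48 to 2.57 for Npr3.

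With no fold-change cutoff 9892 genes (66.8%), 8 of 8 tested proteases and 14 of 18 tested transcription factors passed. The glmTreat test left 2442 genes and 2 transcription factors. These counts differ because the criterion itself differs. Among genes of the lists, glmTreat also lost Pde10a, Pcsk5, Tbx3, Nfatc4, Edn1, Rgs5, Cldn5, Nfatc1, Smoc1, Wt1 and Lyz2. Library size and upper quartile scaling each lost Ide and Tbx3 and gained Tbx20 and Lum. With library size as the only scaling the median of all genes shifted to 0.14, and the log2 change of summed markers moved to 0.74 for fibroblast (from 0.59), 0.99 for mural (0.84), 2.10 for endothelial (1.95), 1.72 for endocardial (1.58), -2.19 for epicardial (-2.34) and 1.29 for macrophage lists (1.14). Against atrial in place of cardiomyocyte markers, an alternative added after the data were seen, the Nppa difference reversed to -0.41, and to -0.22 without T4. The cause was not tested. Nppc was not tested where 1 CPM was required in 3 libraries. No paired analysis was possible because the groups share no replicate numbers.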
